A study of Mus musculus with 33 samples.

Results

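In cultured mouse esophageal basal cells from which Nudt21 had been deleted, the step from 4 to 6 days of treatment changed 7366 of 12344 genes (59.7%), the most of the 3 steps between successive days of the KO time course. A step of this size was not particular to KO cells. In the hypomorph cells described below 7636 genes were called over the same days, 1870 of them by at least 2-fold, against 1743 in KO cells. Genes of DNA replication, mitosis, ribosome biogenesis and cholesterol synthesis fell nearly without exception. Most cytosolic ribosomal protein genes were not called, with 6 of 82 higher and 3 lower. Genes of the suprabasal epithelial layers, the interferon response and antigen presentation rose. The comparison sets the 3 KO day 6 libraries against the 3 KO day 4 libraries over all genes of the deposited messenger RNA table, 6 of the 18 messenger RNA libraries and of the 33 samples of the series. KO day 6 and KO day 4 cells carry the genotype Nudt21 KO in the labels and received 4-hydroxytamoxifen (4OHT, 0.05 µM) for 6 or 4 days. The labels of matched samples of the series give the alleles as Nudt21 fl/fl; R26CreER, a floxed Nudt21 gene with a Cre recombinase that 4OHT activates in any cell type. Beside them stand 4 groups of 3 libraries each. Hypomorph day 6 and day 4 cells, named Hypo in their titles, had 4OHT with doxycycline (50 ng/ml), and KO day 2 cells had 4OHT for 2 days. Control cells, named Floxed in their titles, had ethanol for 4 days and stand at day 0 of the time course. All groups grew in SAGM medium with the inhibitors Y-27632, CHIR99021, A83-01 and DMH-1, in exponential growth and with medium changed every 48 hours. No ethanol-treated culture of 6 days was analysed here, so days in culture and days since the start of deletion cannot be told apart. The labels do not say whether the 3 replicates came from separate mice or cultures, so a p-value here reflects library-to-library spread that could be technical.

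Nudt21 encodes the RNA-binding subunit of cleavage factor I, which binds UGUA elements upstream of poly(A) sites and favours use of distal sites in many 3′ ends. The esophagus is lined by a stratified squamous epithelium in which keratin 5 and keratin 14 positive basal cells divide, leave the basement membrane, stop dividing and switch to keratins 4 and 13 before they form a cornified or flattened surface. Licensing of replication origins is confined to dividing cells, while envelope precursors, lipid enzymes and surface proteases belong to the differentiating layers.

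Values are CPM as normalized by the authors, called scaled CPM because their totals differ between libraries. A gene was called when its adjusted p was under 0.05 in limma, a linear model fitted to log2(scaled CPM + 0.5) over all 18 libraries. Log2 differences are on that scale, KO day 6 minus KO day 4, with their standard error (SE), and understate the change of genes of low level. Recovered depth was 19.6, 16.3 and 53.3 M reads in the KO day 6 libraries and 50.9, 57.9 and 16.9 M in the KO day 4 libraries. The defining basal genes were abundant: Krt5 stood at 12536, 11712 and 12889 scaled CPM in KO day 6 libraries, against 12309, 13819 and 12732 in KO day 4 libraries, and Trp63, the master transcription factor of the basal layer, at 613, 572 and 664 at KO day 6 and 624, 599 and 587 at KO day 4. Leukocyte, endothelial and fibroblast markers were low beside these. Leukocyte markers (3 of 13 listed) summed to 2.58 to 39.1 at KO day 6 and 3.49 to 53.4 at KO day 4, endothelial markers (2 of 7) to 3.28 to 5.09 and 3.14 to 5.55, and fibroblast markers (1 of 9) to 0.111 to 2.24 and 0.0688 to 2.29. Pecam1, Cdh5, Col1a1, Ckm and Des are not listed in the table. The 12 listed hepatocyte and serum genes summed to 37.3 to 981 at KO day 6 and 17.1 to 1197 at KO day 4, led by Alb, which stood at 219.7, 618 and 17.2 at KO day 6 and 437, 9.53 and 762 at KO day 4. In KO day 6 replicate 2 and KO day 4 replicate 3 Alb stood above Trp63. The hepatocyte and serum signal was uneven within both days and low in KO day 6 replicate 3 and KO day 4 replicate 2. In that pair alone the median differences of the lists described below lay close to those of all 6 libraries, -1.60 against -1.81 for origin licensing and 1.32 against 1.15 for interferon-stimulated genes. Compared only among libraries under, or only among libraries over, 35 M reads, the licensing median was -1.78 and -1.64, and the interferon median 1.04 and 1.24. Of the muscle markers (2 of 10 listed) Acta2, smooth muscle actin, rose, with 52.1, 49.2 and 56.1 scaled CPM in KO day 6 libraries, against 10.0, 8.08 and 7.55 in KO day 4 libraries, and Acta1 did not pass; whether this bears on the other changes was not tested. Markers of columnar and secretory epithelium (6 of 16 listed) summed to 225 to 237 at KO day 6 and 237 to 260 at KO day 4. Of these 6, Krt18, Krt20 and Epcam fell (-1.50, -2.80 and -0.43) and Krt19 rose (0.23), but Krt19 lost its call in 8 of 20 alternatives. Erythroid markers (3 of 6) summed to 2.04 to 93.2 at KO day 6 and 1.48 to 107 at KO day 4. In bulk RNA, fewer cells of a type and less RNA per cell cannot be told apart.

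Nudt21 itself (protein-coding, chr8:94019403-94037039 on GRCm38) was already low at day 4 and lower still at day 6. It stood at 2.01, 1.34 and 1.78 scaled CPM in KO day 6 libraries, against 2.70, 2.44 and 3.95 in KO day 4 libraries. The KO day 6 values all lay below the KO day 4 values, and the level in control cells was 12.9 ± 1.15 (SD, n = 3). The difference was -0.66 ± 0.28 with a limma adjusted p of 0.0464, at the edge of the threshold; without KO day 4 replicate 3 it was -0.48 with an adjusted p of 0.194. It also missed the threshold without KO day 4 replicate 1 (-0.72, adjusted p = 0.0625), KO day 6 replicate 2 (-0.54, adjusted p = 0.162) or KO day 6 replicate 3 (-0.69, adjusted p = 0.0765), and under 4 of the other settings tried.

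Of the 7366 genes called, 3280 were higher at KO day 6 (26.6% of genes tested) and 4086 were lower (33.1%), and the median difference over all genes was -0.05. These 2 shares are the background for the counts of each gene list below. The balance of higher and lower calls, and so the 2 shares, turned with the scaling: 3848 were higher and 3774 lower with TMM factors (median 0.01), 3886 and 3743 with DESeq2 (median 0.01), and 3701 and 3899 with every library scaled to the same total (median -0.01). A change of at least 2-fold was found for 852 of the higher and 891 of the lower genes. The 3 KO day 6 values lay above all 3 KO day 4 values in 3615 genes and below them in 4254.

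The 15 largest rises included genes of the outer epithelial layers, secreted proteases, and genes of other kinds. Klk14, a kallikrein protease of the cornified surface, stood at 84.6, 36.3 and 29.6 scaled CPM in KO day 6 libraries, against 2.06, 1.44 and 2.40 in KO day 4 libraries, a difference of 4.22 ± 0.52 (limma adjusted p = 9.44e-06). Repetin (Rptn), a cornified envelope precursor, stood at 139, 72.4 and 94.4 at KO day 6 and 6.56, 5.23 and 4.80 at KO day 4, Asprv1, a retroviral-like protease that processes filaggrin, at 167, 89.8 and 84.7 at KO day 6 and 6.09, 9.70 and 6.06 at KO day 4, and the lipase gene Lipm at 71.3, 72.2 and 67.6 at KO day 6 and 4.18, 3.77 and 5.55 at KO day 4. In Klk14, Rptn and Asprv1 the first KO day 6 library was the highest. The naming rule required that the libraries of the 2 days not overlap in any of the 15 genes. Also among the 15 largest were Ly6g6c, Gsdma, Klk13 and Wfdc5, all with a log2 difference between 3.20 and 3.43. Vcam1, an adhesion molecule of inflamed tissue, rose by 3.88 ± 0.31, with 18.6, 18.4 and 21.7 scaled CPM in KO day 6 libraries, against 1.35, 0.550 and 0.801 in KO day 4 libraries. Chit1, the chitinase chitotriosidase, stood at 208, 166 and 173 at KO day 6 and 16.8, 16.1 and 16.0 at KO day 4, the most abundant of the 15. Ceacam1, Cyp2b10, Grid2ip, Gbp2 and Tmem151a complete them, at differences of 3.63, 3.49, 3.31, 3.25 and 3.16.

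The largest fall was that of follistatin (Fst), the secreted antagonist of activins. It stood at 6.46, 2.69 and 6.60 scaled CPM in KO day 6 libraries, against 168, 200.2 and 183 in KO day 4 libraries, a 35-fold lower mean and a difference of -5.09 ± 0.24 (limma adjusted p = 5.63e-10). Kcnn4, a calcium-activated potassium channel, stood at 6.07, 4.59 and 6.64 at KO day 6 and 67.6, 90.1 and 90.2 at KO day 4. The naming rule required groups that do not overlap for the falls as well. Growth factor genes and their transcriptional outputs made up much of the rest, with Areg, Ereg, Fosl1 and Dusp6 at -2.98, -2.63, -2.71 and -2.42, together with the cytokine gene Il24 (-3.14), the aldehyde dehydrogenase gene Aldh3a1 (-2.89) and Hmga2 (-2.59), a chromatin protein of immature cells. Replication and S-phase genes were also among them, namely Cdc6 (-2.83), Ccne2 (-2.51), Hirip3 (-2.51), Cdt1 (-2.46) and Uhrf1 (-2.42).

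**Figure D1:**
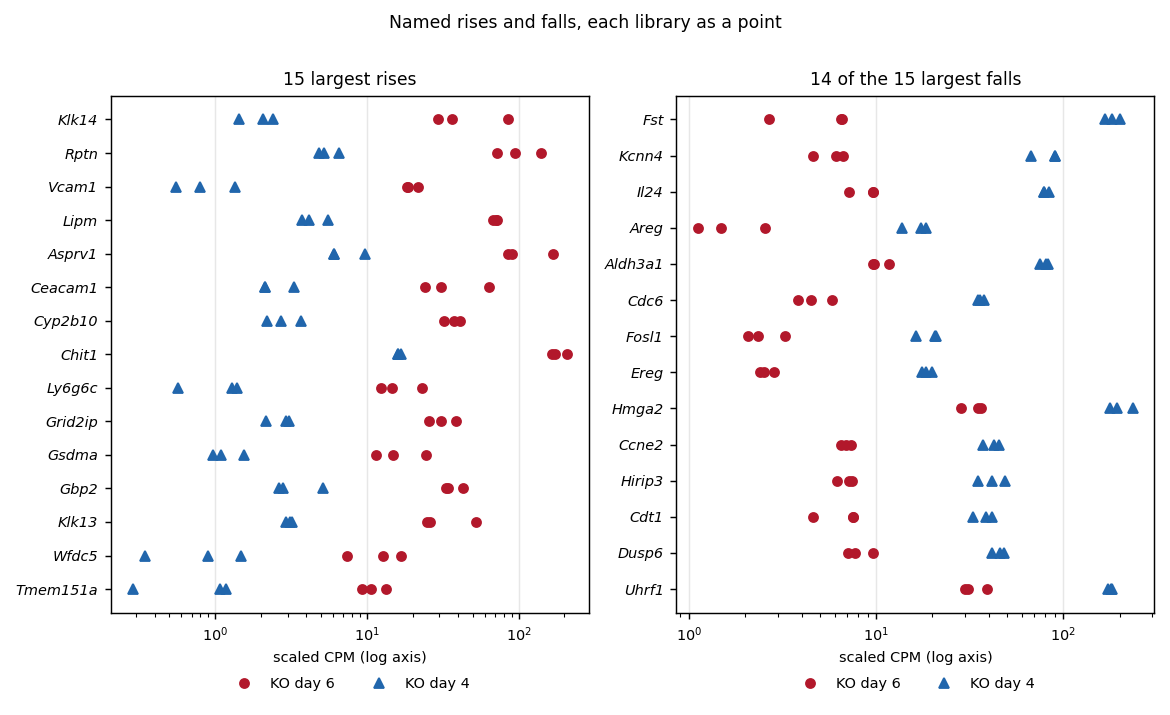
Scaled CPM on a log axis of the 15 genes with the largest rise (left) and 14 of the 15 with the largest fall (right) by the naming rule; circles are the 3 KO day 6 libraries and triangles the 3 KO day 4 libraries. The point clouds of the 2 days do not overlap in any gene, which the rule required, and Fst shows the widest gap.

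Genes of the replication machinery fell together. All 19 genes of origin licensing and the replicative helicase fell, with a median difference of -1.81. Mcm7, a helicase subunit, stood at 30.3, 27.1 and 31.6 scaled CPM in KO day 6 libraries, against 126, 127 and 125 in KO day 4 libraries, with a difference of -2.07 ± 0.08 and a limma adjusted p of 2.15e-17. Mcm3 and Mcm5 fell by as much (-2.09 and -2.07), Mcm4 and Mcm2 by a little less (-1.82 and -1.70). The loaders that place the helicase on origins fell further: Cdc6 stood at 4.51, 3.81 and 5.82 at KO day 6 and 35.2, 35.7 and 37.5 at KO day 4, and Cdt1 at 7.54, 4.59 and 7.51 at KO day 6 and 33.0, 41.6 and 38.7 at KO day 4. Values within each day were close together, and the gap between days was several times the spread. The smallest fall in the list, named after its values were seen, was that of Gmnn, geminin, the inhibitor of Cdt1, at -0.41 ± 0.12.

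The E2F pattern TTTNNCGC, counted on both strands, was present in the RefSeq promoter window (250 bases before to 50 after the start, GRCm38.p6) of 8 of 14 licensing genes that had an entry, 57.1%, against 5.93% of all 27025 genes with a window. Those 27025 genes were not limited to genes expressed here, whereas the list members are. No test was run on this or the other promoter counts below. The window of Cdc6, the member with the largest fall among those with a match (chr11:98907901-98908200, plus strand), is shown with the match in capitals, here as the reverse complement.
Cdc6 promoter: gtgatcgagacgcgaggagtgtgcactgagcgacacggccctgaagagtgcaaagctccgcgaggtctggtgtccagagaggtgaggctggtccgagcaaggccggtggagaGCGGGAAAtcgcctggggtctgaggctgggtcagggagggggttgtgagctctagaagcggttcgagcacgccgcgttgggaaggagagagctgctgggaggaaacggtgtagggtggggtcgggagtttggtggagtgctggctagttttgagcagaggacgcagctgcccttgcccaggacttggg

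Of 27 genes of DNA synthesis and nucleotide supply 26 fell, with a median of -1.43. Uhrf1, which carries DNA methylation through replication, stood at 29.8, 31.1 and 39.2 scaled CPM in KO day 6 libraries, against 180.5, 182 and 175 in KO day 4 libraries. Rrm2, the regulated subunit of ribonucleotide reductase, stood at 179, 166 and 202 at KO day 6 and 702, 716 and 694 at KO day 4, and Tk1 (thymidine kinase), Rpa1 (single-strand binding) and Lig1 (DNA ligase) differed by -2.20, -1.30 and -1.82. Rrm1, the partner subunit of Rrm2, was the member that did not pass, with 918, 869 and 981 at KO day 6 and 1053, 975 and 942 at KO day 4, where the libraries of the 2 days overlapped. All 16 genes of homologous recombination fell as well, by a median of -1.38, with Exo1 and Brca1 at -2.37 and -1.36.

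The mitotic programme fell in 32 of 32 genes tested and by a median of -1.37. Cdk1, the mitotic kinase, stood at 59.0, 55.5 and 63.0 scaled CPM in KO day 6 libraries, against 168, 165 and 170.3 in KO day 4 libraries. Ccnf (cyclin F), Mybl2 (a transcription factor of mitotic genes), Birc5 (survivin) and Bub1b (spindle checkpoint) differed by -1.93, -2.04, -1.63 and -1.61. Mki67, named after its values were seen, stood at 228, 223 and 282 at KO day 6 and 683, 655 and 578 at KO day 4. No library of either day crossed into the range of the other. The pattern TTTGAA of the cell cycle homology region was found in 19 of 26 mitotic genes with a promoter window (73.1%), against 20.2% of all genes. Ccnf had the largest fall of the matching genes, and its window (chr17:24251360-24251659, minus strand) holds the pattern at 2 places, in capitals.
Ccnf promoter: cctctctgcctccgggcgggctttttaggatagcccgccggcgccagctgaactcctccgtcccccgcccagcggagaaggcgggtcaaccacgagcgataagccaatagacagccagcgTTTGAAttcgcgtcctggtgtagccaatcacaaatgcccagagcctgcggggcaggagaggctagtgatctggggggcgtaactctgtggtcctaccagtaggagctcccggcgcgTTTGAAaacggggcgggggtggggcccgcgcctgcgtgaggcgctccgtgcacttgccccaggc

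Among 20 regulators of G1 and of E2F activity, 16 fell and 2 rose, with a median of -0.89. Cyclin D1 (Ccnd1), the mitogen-driven partner of CDK4, stood at 166, 158 and 204 scaled CPM in KO day 6 libraries, against 447, 504 and 466 in KO day 4 libraries, and cyclin E2 (Ccne2) at 6.46, 6.94 and 7.35 at KO day 6 and 45.5, 42.9 and 37.5 at KO day 4. Cdc25a, a phosphatase that activates CDKs, fell by 1.82 ± 0.10. The 2 that rose restrain E2F: Rb1 stood at 51.5, 40.3 and 51.7 at KO day 6 and 29.5, 27.7 and 23.7 at KO day 4, and its relative Rbl2 rose by 0.25 ± 0.11 (adjusted p = 0.0497), which was 0.20 with an adjusted p of 0.175 without KO day 4 replicate 2. Of 7 CDK inhibitors 4 rose. Cdkn1c (p57), which accompanies cell cycle exit in many epithelia, stood at 22.2, 23.1 and 23.02 scaled CPM in KO day 6 libraries, against 5.30, 7.27 and 6.52 in KO day 4 libraries, and Cdkn2a, Cdkn2b and Cdkn1b rose by 0.82 ± 0.10, 0.69 ± 0.16 and 0.53 ± 0.10. Cdkn2c fell (-0.89 ± 0.14). Cdkn1a (p21), the p53-induced inhibitor, was at 338, 292 and 348 at KO day 6 and 287, 313 and 291 at KO day 4 and did not pass (limma adjusted p = 0.139). It did pass in 4 of 20 alternatives, among them every library scaled to the same total (limma adjusted p = 0.0144), with differences of 0.08 to 0.21 over all 20. The 26 p53 targets were split, with 10 up, 9 down and a median of 0.01. These are 38.5% and 34.6%, against 26.6% and 33.1% of all genes. Trp53inp1 rose by 0.85 ± 0.09 and Aen fell by 0.69 ± 0.08.

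**Figure D2:**
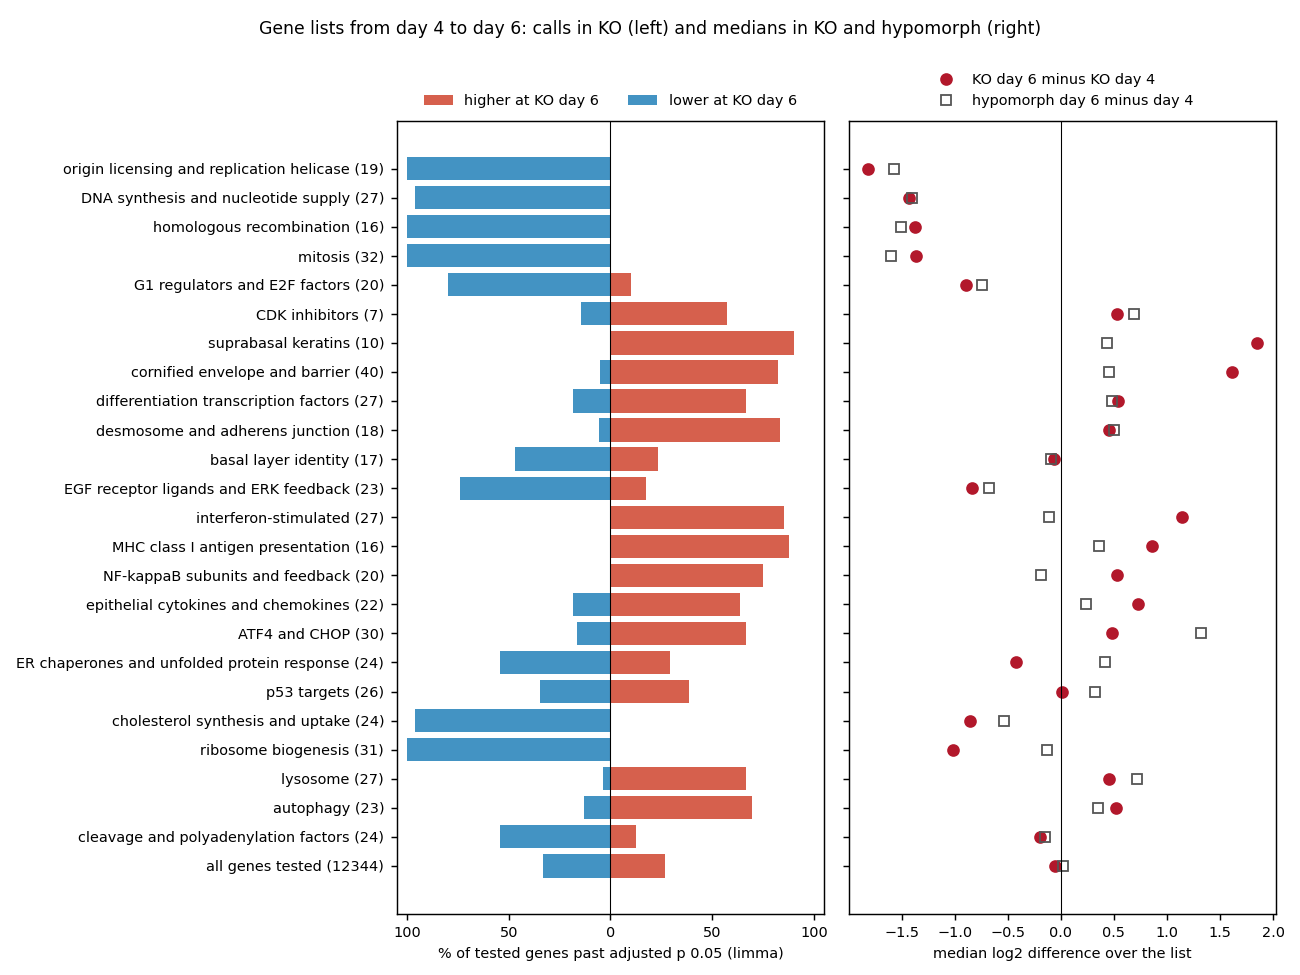
Left, share in percent of the tested genes of each list (number in brackets) called higher (right of 0) or lower (left of 0) at KO day 6 than at KO day 4; right, the median log2 difference of the list from day 4 to day 6 in KO (circles) and hypomorph cells (squares), each over 3 libraries a day. Replication and mitosis lists are low in both, ribosome biogenesis is at -1.02 in KO and -0.13 in hypomorph cells, and interferon-stimulated genes at 1.15 and -0.12.

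Differentiation genes rose. Of 10 suprabasal keratins tested 9 rose, by a median of 1.85. Krt13, the main keratin of the living suprabasal esophagus, stood at 5536, 4109 and 4013 scaled CPM in KO day 6 libraries, against 1255, 1271 and 1188 in KO day 4 libraries, a difference of 1.86 ± 0.38 (limma adjusted p = 8.52e-04). Its partner Krt4, named after its values were seen, stood at 383, 259.9 and 240.5 at KO day 6 and 49.6, 50.7 and 46.6 at KO day 4. The first KO day 6 library was the highest in both genes, and all KO day 6 values lay above all KO day 4 values. Krt80, Krt78, Krt23 and Krt16 rose by 1.83 ± 0.23, 2.56 ± 0.37, 2.77 ± 0.54 and 1.34 ± 0.28.

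Of 40 genes of the cornified envelope and barrier 33 rose and 2 fell, with a median of 1.61. Suprabasin (Sbsn) stood at 574, 519.7 and 513 scaled CPM in KO day 6 libraries, against 221, 248 and 241 in KO day 4 libraries, and differed by 1.17 ± 0.07 with an adjusted p of 3.11e-14, the smallest of the list. The annexin gene Anxa9, dermokine (Dmkn) and the keratinocyte lipid transporter gene Abca12 rose by 1.71 ± 0.20, 1.10 ± 0.11 and 1.09 ± 0.12. Of members named after their values were seen, the envelope protein Sprr1a stood at 344, 242 and 228 at KO day 6 and 39.7, 38.1 and 36.4 at KO day 4 and the protease inhibitor Spink5 at 186, 126 and 144 at KO day 6 and 19.5, 16.8 and 15.9 at KO day 4. All 3 values of KO day 6 exceeded those of KO day 4 in each of them, and KO day 6 replicate 1 was the highest. Involucrin (Ivl), an early envelope precursor, fell by 0.65 ± 0.24, with 7.05, 6.38 and 9.16 at KO day 6 and 12.4, 16.7 and 8.24 at KO day 4, and Cst6, a cystatin, fell by 0.45 ± 0.18. Neither passed without KO day 4 replicate 2, where Ivl differed by -0.42 (adjusted p = 0.152) and Cst6 by -0.21 (adjusted p = 0.350), among other libraries left out. Tgm1, the main cross-linking enzyme, stood at 84.7, 66.9 and 74.1 at KO day 6 and 66.1, 67.8 and 60.5 at KO day 4 and did not pass. The AP-1 pattern TGANTCA was in 13 of 30 of the members with a promoter window (43.3%), against 8.97% of all genes. Rptn had the largest rise of those, and its window (chr3:93393449-93393748, plus strand) holds 1 match.
Rptn promoter: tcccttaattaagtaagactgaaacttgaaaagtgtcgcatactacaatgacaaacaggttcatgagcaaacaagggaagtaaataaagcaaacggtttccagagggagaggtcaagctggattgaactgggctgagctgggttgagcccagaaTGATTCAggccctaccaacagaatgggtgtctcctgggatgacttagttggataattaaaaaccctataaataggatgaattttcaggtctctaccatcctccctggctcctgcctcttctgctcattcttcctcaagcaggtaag

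Of 27 transcription factors of epithelial differentiation 18 rose and 5 fell, with a median of 0.54. Elf3, an ETS factor of epithelial maturation, rose by 0.93 ± 0.11. Grhl1, named after its values were seen, stood at 135, 113 and 128 at KO day 6 and 49.5, 51.7 and 51.7 at KO day 4, and Elf5, named likewise, at 8.57, 5.15 and 5.05 at KO day 6 and 1.12, 0.619 and 0 at KO day 4. Fosl1, an AP-1 subunit induced by growth factors, went the other way, with 2.35, 2.07 and 3.25 scaled CPM in KO day 6 libraries, against 16.3, 20.6 and 21.0 in KO day 4 libraries. Ppard, Tfap2a and Grhl2 fell by smaller amounts (-0.34, -0.39 and -0.26), of which that of Grhl2 was -0.10 (adjusted p = 0.631) without the libraries with Alb over 100. In the Notch pathway 8 of 19 genes rose and 5 fell; the ligand genes Dll1 and Jag2 fell (-1.09 and -0.41), as did Lfng (-0.82), a modifier of Notch receptors.

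Basal identity genes did not move as a group: 4 of 17 rose, 8 fell and the median was -0.07. Krt14 fell by 0.22 ± 0.07 and Sox2 by 0.23 ± 0.10, both named as defining markers, but without KO day 4 replicate 2 these were -0.16 (adjusted p = 0.0846) and -0.11 (adjusted p = 0.367). Neither passed without KO day 6 replicate 2 (-0.18 with an adjusted p of 0.0585 for Krt14, -0.19 with 0.145 for Sox2). Sox2 also missed the threshold without KO day 6 replicate 1 or 3 (adjusted p = 0.0767 and 0.0570) and with the replicate block (adjusted p = 0.0538). Krt5 and Trp63 did not pass (adjusted p = 0.378 and 0.75). Krt15, another basal keratin, rose, with 1403, 1221 and 1296 scaled CPM in KO day 6 libraries, against 533, 601 and 549 in KO day 4 libraries. Adhesion genes changed in both directions. Of 18 desmosome and adherens junction genes 15 rose, by a median of 0.45; desmoplakin (Dsp) stood at 7221, 7048 and 7878 scaled CPM in KO day 6 libraries, against 4368, 4419 and 4206 in KO day 4 libraries, and Perp, Pkp1 and Dsg3 rose by 0.70 ± 0.07, 0.68 ± 0.07 and 0.86 ± 0.10. β-catenin (Ctnnb1) fell, with 146, 143 and 151 at KO day 6 and 233, 218 and 241 at KO day 4. Of 15 tight junction genes 8 rose, F11r, Tjp3 and Cldn1 among them (0.69, 2.42 and 0.68), and 2 fell. In the hemidesmosome and basement membrane list 8 of 24 rose and 7 fell (33.3% and 29.2%), near the 26.6% and 33.1% of all genes. Itga3, an integrin that binds laminin, stood at 639.9, 633 and 737 at KO day 6 and 1493, 1601 and 1531 at KO day 4 and Lamb1 fell by 1.21 ± 0.09, whereas Dst and Col17a1 rose by 0.66 ± 0.08 and 0.58 ± 0.08.

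Ligands of the EGF receptor and the feedback genes of the ERK cascade fell in 17 of 23 cases, with 4 rises and a median of -0.84. Epiregulin (Ereg) stood at 2.40, 2.52 and 2.86 scaled CPM in KO day 6 libraries, against 19.9, 18.6 and 17.6 in KO day 4 libraries, amphiregulin (Areg) at 2.55, 1.12 and 1.48 at KO day 6 and 18.6, 17.3 and 13.7 at KO day 4, and heparin-binding EGF (Hbegf) at 18.4, 15.6 and 19.8 at KO day 6 and 48.3, 55.5 and 53.4 at KO day 4. Each ligand was lower in every KO day 6 library. Of the other listed genes, Dusp6 (an ERK phosphatase) stood at 7.69, 9.57 and 7.09 at KO day 6 and 41.4, 48.4 and 46.1 at KO day 4, and Etv4 and Dusp5 fell by 2.25 ± 0.12 and 1.86 ± 0.14. The receptor genes Erbb3 and Egfr rose (1.33 ± 0.20 and 0.25 ± 0.08). In the activin, follistatin and TGF-β list 8 of 24 rose and 6 fell: Tgfbr2 fell by 0.81 ± 0.08, and Inhbb, an activin subunit, and the receptor gene Acvr1b rose by 0.81 ± 0.11 and 0.92 ± 0.11, beside the fall of Fst. Of 18 genes of the wound edge and proteolysis 8 fell and 4 rose. Plaur, the urokinase receptor, fell by 2.37 ± 0.14 and Hmga2 stood at 35.02, 28.3 and 36.2 at KO day 6 and 177, 235 and 194 at KO day 4. YAP targets were mixed, with 6 of 20 up and 8 down (30.0% and 40.0%), near the shares of all genes. Nt5e rose by 1.31 ± 0.07, and Ctgf fell by 1.76 ± 0.16.

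Interferon-stimulated genes rose in 23 of 27 cases and fell in none, with a median of 1.15. Irf9, the DNA-binding subunit of the complex that type I interferon activates, stood at 23.6, 24.7 and 23.3 scaled CPM in KO day 6 libraries, against 6.29, 5.62 and 5.72 in KO day 4 libraries, a difference of 1.94 ± 0.15 with a limma adjusted p of 9.26e-12. Parp14, an ADP-ribosyltransferase, stood at 25.2, 26.2 and 32.0 at KO day 6 and 5.98, 5.24 and 4.58 at KO day 4, Ifi27 at 45.1, 44.0 and 46.1 at KO day 6 and 9.37, 13.5 and 12.5 at KO day 4 and the GTPase gene Gbp2 at 33.3, 34.1 and 42.8 at KO day 6 and 5.13, 2.80 and 2.63 at KO day 4. The KO day 6 libraries were close to each other and apart from those of KO day 4. Ddx58, the sensor RIG-I, and Gbp3 rose by 1.13 ± 0.11 and 3.18 ± 0.33. The pattern TTTCNNTTT of interferon response elements was found in 11 of 21 members with a window (52.4%) and in 12.1% of all genes. Gbp2 had the largest rise among the matching members, and its window (chr3:142620413-142620712, plus strand) carries 1 match close to the start.
Gbp2 promoter: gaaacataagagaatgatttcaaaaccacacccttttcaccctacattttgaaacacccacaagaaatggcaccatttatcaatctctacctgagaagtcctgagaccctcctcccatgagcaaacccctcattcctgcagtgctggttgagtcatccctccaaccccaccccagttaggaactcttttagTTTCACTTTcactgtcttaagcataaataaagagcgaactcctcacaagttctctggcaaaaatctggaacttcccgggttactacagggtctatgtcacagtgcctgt

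Antigen presentation by MHC class I rose with it, in 14 of 16 genes and by a median of 0.85. B2m, the invariant light chain, stood at 207, 179.5 and 199 scaled CPM in KO day 6 libraries, against 79.6, 79.2 and 67.0 in KO day 4 libraries, and the peptide transporter gene Tap2 at 53.5, 55.8 and 55.3 at KO day 6 and 18.1, 16.8 and 17.7 at KO day 4. Tapbp, H2-T23 and H2-K1 rose by 1.14 ± 0.09, 1.32 ± 0.12 and 0.58 ± 0.07. Of 20 NF-κB subunits and feedback genes 15 rose and none fell, with a median of 0.53. Icam1 stood at 275, 269 and 313 at KO day 6 and 127, 136 and 136 at KO day 4 and Nfkbiz, a nuclear IκB protein, at 156, 159.7 and 146 at KO day 6 and 71.8, 75.2 and 68.8 at KO day 4; Nfkbia, Birc3 and Ikbke rose by 0.79 ± 0.08, 1.16 ± 0.14 and 0.64 ± 0.08, and the subunit gene Nfkb1 did not pass (-0.09 ± 0.07). Of 22 epithelial cytokine and chemokine genes 14 rose and 4 fell. Tslp, an alarmin of barrier epithelia, stood at 9.11, 10.2 and 10.6 at KO day 6 and 0.945, 0.877 and 0.343 at KO day 4, and Csf1 and Il18 rose by 1.58 ± 0.23 and 2.04 ± 0.29. Ppbp stood at 54.7, 49.4 and 58.4 at KO day 6 and 208, 205 and 196 at KO day 4 and so fell, and Csf3, Cxcl5 and Tnfsf9 fell too (-1.80, -1.61 and -1.23). The summed leukocyte markers, given above, overlapped between the 2 days, and their part in these rises was not tested.

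**Figure D3:**
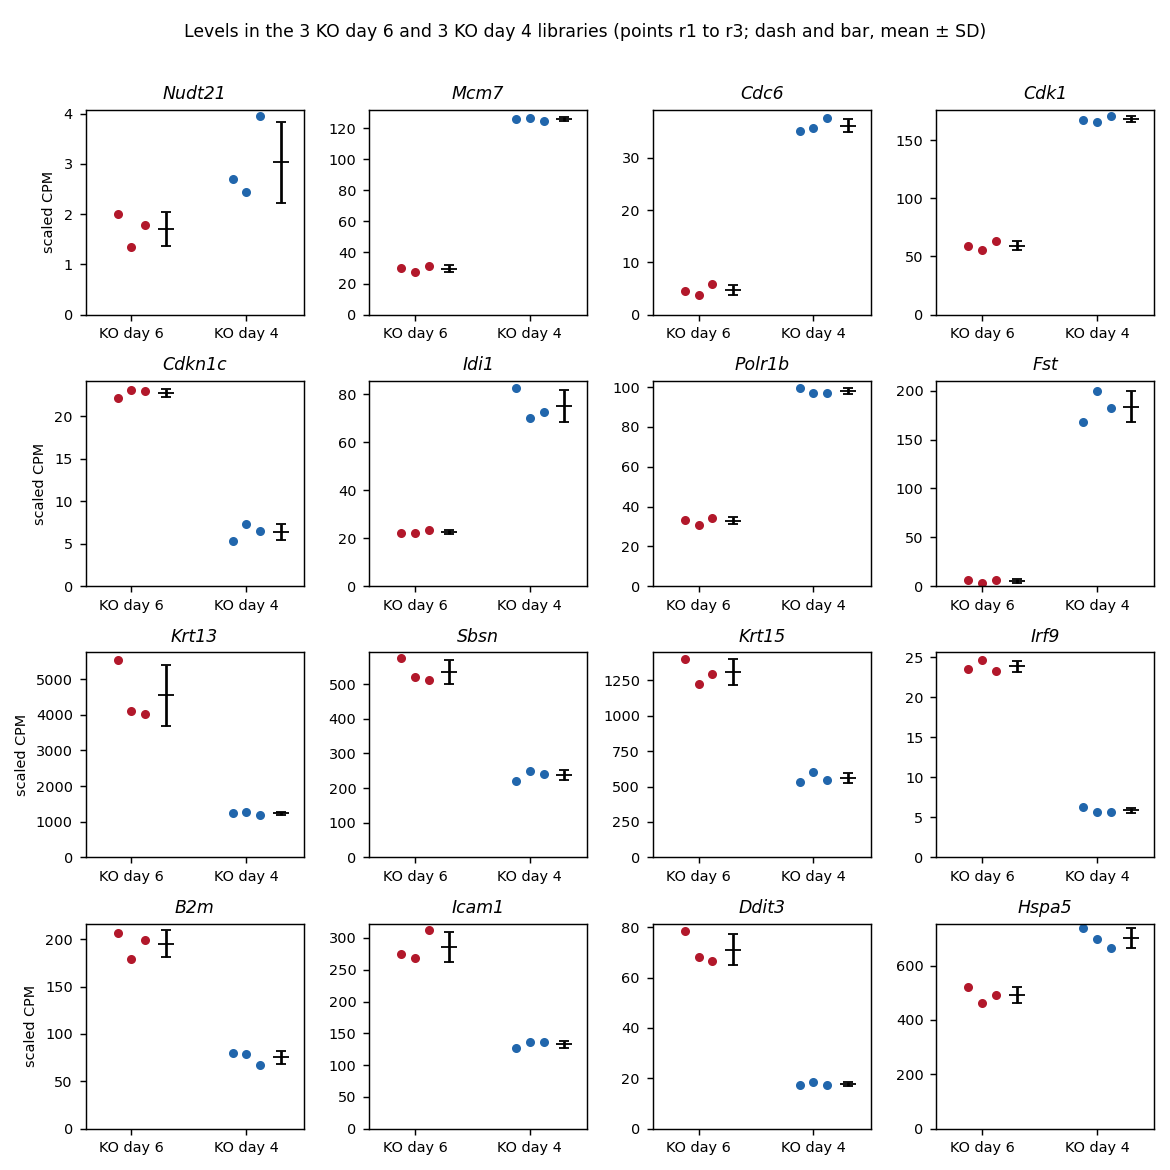
Scaled CPM of 16 genes in the 3 KO day 6 libraries (left in each panel) and the 3 KO day 4 libraries (right), replicates 1 to 3 from left to right, with mean and SD beside them; axes start at 0. No pair of groups overlaps in any of the 16 panels, but the genes were drawn from those named in the text, many for their small p. Of all 12344 genes, 3615 lay wholly above at KO day 6 and 4254 wholly below.

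Stress programmes moved in different directions. Of 30 ATF4 and CHOP targets 20 rose and 5 fell, with a median of 0.48. Ddit3 (CHOP) stood at 78.3, 68.3 and 66.6 scaled CPM in KO day 6 libraries, against 17.4, 18.6 and 17.3 in KO day 4 libraries, a difference of 1.97 ± 0.11. Atf5, Chac1 (which degrades glutathione), Aldh1l2 and Vldlr rose by 1.38 ± 0.07, 1.96 ± 0.11, 1.98 ± 0.11 and 2.18 ± 0.14. Among the members that fell were Slc7a11 and Slc7a5, of amino acid uptake, and Shmt2 and Psat1, of serine metabolism, at -0.63 to -0.28. These pathways did not fall as a whole: the serine synthesis gene Psph and the asparagine synthetase gene Asns differed by 0.73 and 0.74. The pattern TGATGNAA of ATF4 composite elements was in 9 of 25 members with a window (36.0%), against 4.51% of all genes. Trib3, a pseudokinase induced by CHOP, had the largest rise of those. It stood at 101, 101 and 82.1 at KO day 6 and 15.8, 13.4 and 15.3 at KO day 4, and its window (chr2:152344011-152344310, minus strand) shows the match as its reverse complement.
Trib3 promoter: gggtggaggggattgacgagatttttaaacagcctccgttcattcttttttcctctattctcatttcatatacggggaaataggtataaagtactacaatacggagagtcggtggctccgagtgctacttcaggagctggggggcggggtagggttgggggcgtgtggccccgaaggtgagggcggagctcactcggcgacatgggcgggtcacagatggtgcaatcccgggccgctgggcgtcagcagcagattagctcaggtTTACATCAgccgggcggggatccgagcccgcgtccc

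Chaperones of the endoplasmic reticulum went the other way. In that list 13 of 24 genes fell and 7 rose, with a median of -0.42. Calreticulin (Calr), Pdia6, Pdia4 and Hsp90b1, which fold secreted proteins, fell by 1.08 ± 0.07, 1.10 ± 0.07, 0.83 ± 0.07 and 0.88 ± 0.09. Hspa5 (BiP), named after its values were seen, stood at 519.7, 463 and 492 scaled CPM in KO day 6 libraries, against 739.6, 698 and 665 in KO day 4 libraries. The sensor genes Atf6, Eif2ak3 and Ern1 and the degradation genes Herpud1, Sel1l and Edem1 rose with Ero1l, by 0.24 to 0.76. Among 15 immediate early and heat shock genes 7 rose and 8 fell: Hspa8, the constitutive cytosolic chaperone, stood at 445, 406 and 494 at KO day 6 and 1287, 1333 and 1186 at KO day 4, while Hspb1 and Atf3 rose by 0.80 ± 0.10 and 1.64 ± 0.22. Of 21 genes of the BCL2 family and caspases 8 rose and 6 fell, with Bbc3 (PUMA) at 1.09, Casp4 at 1.72, Bok at -1.02 and Casp8 at -0.69.

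Growth metabolism fell. All 31 ribosome biogenesis genes fell, by a median of -1.02. Polr1b, a subunit of RNA polymerase I, stood at 33.4, 30.8 and 34.4 scaled CPM in KO day 6 libraries, against 99.7, 97.2 and 97.1 in KO day 4 libraries, with a difference of -1.56 ± 0.08 (limma adjusted p = 1.56e-15), and Dkc1, the pseudouridine synthase dyskerin, at 37.1, 36.0 and 42.5 at KO day 6 and 145, 134 and 113 at KO day 4. Nop16, Nop58 and Nop56, nucleolar assembly factors, fell by 1.53 ± 0.08, 1.54 ± 0.09 and 1.26 ± 0.07, and nucleolin (Ncl), named after its values were seen, stood at 827, 745 and 875 at KO day 6 and 2201, 2044 and 1766 at KO day 4. No overlap was seen between days in these genes.

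Of 24 genes of cholesterol synthesis and uptake 23 fell, with a median of -0.85. Mvd, Idi1 and Cyp51, enzymes of the pathway, and Stard4, a sterol carrier, fell by 1.59 ± 0.07, 1.71 ± 0.08, 1.08 ± 0.07 and 1.31 ± 0.08. Srebf2, the transcription factor of the pathway, was the member that did not pass, with 470.0, 481 and 504 at KO day 6 and 424, 499.5 and 519.8 at KO day 4. The CCAAT pattern, which NF-Y binds beside sterol elements, was in the windows of 16 of 16 members with an entry, against 41.1% of all genes. Idi1, isopentenyl diphosphate isomerase, is shown for its fall, with 21.9, 22.0 and 23.5 scaled CPM in KO day 6 libraries, against 82.5, 69.9 and 72.5 in KO day 4 libraries. Its window (chr13:8885356-8885655, plus strand) has 2 matches, both as the reverse complement.
Idi1 promoter: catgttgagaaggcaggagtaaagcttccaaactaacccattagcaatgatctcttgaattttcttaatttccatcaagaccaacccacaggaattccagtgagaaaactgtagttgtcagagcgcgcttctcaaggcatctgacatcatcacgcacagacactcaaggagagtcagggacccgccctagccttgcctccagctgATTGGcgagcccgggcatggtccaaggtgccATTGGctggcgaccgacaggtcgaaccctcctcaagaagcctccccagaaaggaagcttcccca

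Degradative genes rose. In the lysosome list 18 of 27 genes rose and 1 fell, with a median of 0.45; Cd68 stood at 484, 444 and 498 scaled CPM in KO day 6 libraries, against 198, 218 and 193 in KO day 4 libraries, and Ctsb rose by 0.61 ± 0.06. In the autophagy list 16 of 23 rose and 3 fell, with a median of 0.52. Sqstm1 (p62), the receptor for ubiquitinated cargo, stood at 571, 503 and 551 at KO day 6 and 246, 264 and 239 at KO day 4, and Optn and Atg13 rose by 1.59 ± 0.16 and 0.98 ± 0.09, whereas Atg5 and Wipi2 fell (-0.31 and -0.26). Hypoxia and glycolysis genes were divided, 12 up and 11 down of 28. Ndrg1 stood at 434, 414 and 461 at KO day 6 and 138, 142 and 142 at KO day 4, and Adm and Pfkfb3 rose by 1.43 ± 0.12 and 1.12 ± 0.10, while Ldha, lactate dehydrogenase A, fell by 0.66 ± 0.08.

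The cleavage and polyadenylation machinery to which Nudt21 belongs was lower in 13 of 24 genes and higher in 3, by a median of -0.19. Cstf2, the CstF subunit that contacts RNA, fell by 1.08 ± 0.08, and Cstf1, Papola and Cpsf3 fell by 0.75 ± 0.08, 0.48 ± 0.07 and 0.54 ± 0.07. Papolg, another nuclear poly(A) polymerase, rose, with 140.1, 144 and 135 scaled CPM in KO day 6 libraries, against 69.3, 62.3 and 63.5 in KO day 4 libraries, and Pcf11 rose by 0.34 ± 0.10. Of 9 genes that process replication-dependent histone messages 7 fell, led by Slbp (-1.43 ± 0.10), which binds the histone stem-loop in S phase. Poly(A) sites were measured at day 4 only, pooled over samples, as the share of reads at the proximal site. Genes that the authors called shortened at KO day 4 (2135 tested) had a median mRNA difference of -0.11 from KO day 4 to KO day 6, with 24.1% up and 41.6% down. Genes with no called shift (2094) had a median of -0.20, with 18.2% up and 48.7% down, and lengthened genes (95) a median of -0.15. The 8020 genes outside the poly(A) table had a median of 0.02. Among the named falls, Fst used its proximal site for 99.9% of reads in KO day 4 cells and 82.4% in control cells, Hmga2 for 96.2% and 54.3%, and Hirip3 for 98.6% and 75.7%. For Fosl1 and Uhrf1 no shift was called. Named rises were divided too. Grhl1 used its proximal site for 60.6% of reads in KO day 4 cells and 3.45% in control cells, and Rb1 for 93.2% and 9.68%. For B2m and Tapbp, which also rose, no shift was called. A link between site use and the mRNA step was not tested.

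Hypomorph cells, in which Nudt21 averaged 2.77 ± 1.56 scaled CPM at hypomorph day 6 and 5.01 ± 1.20 at hypomorph day 4 (SD, n = 3 each), were followed over the same 2 days with separate libraries, and the difference between the 2 steps was tested directly as KO step minus hypomorph step. It was called in 5636 genes, 2251 higher (18.2% of genes tested) and 3385 lower (27.4%), with a median of -0.09. With every library scaled to the same total, this split turned to 3636 higher and 2138 lower and the median to 0.12, a shift of all genes that leaves the direction of a small difference undecided. Both steps were called in the same direction in 4241 genes, and in opposite directions with the difference called in 778. Doxycycline was given to hypomorph cells only, so its effect and that of the remaining Nudt21 cannot be told apart.

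Replication and mitosis genes fell in both. The median step of the licensing list was -1.81 in KO cells and -1.57 in hypomorph cells, and that of the mitosis list -1.37 and -1.60. The difference was higher in 2 and lower in 5 of 19 licensing genes, and higher in 11 and lower in 2 of 32 mitosis genes. Mcm7 stood at 35.3 ± 2.05 scaled CPM at hypomorph day 6 and 139 ± 7.58 at hypomorph day 4. The 2 states parted in other groups. Interferon-stimulated genes had a higher step in KO cells in 22 of 27 genes and a lower one in none, with medians of 1.15 in KO and -0.12 in hypomorph cells. Irf9 was at 6.86 ± 1.02 scaled CPM at hypomorph day 6 and 6.92 ± 0.810 at hypomorph day 4, a difference between steps of 1.95 ± 0.21 (limma adjusted p = 3.12e-08), and Parp14, at 1.86 ± 0.242 scaled CPM at hypomorph day 6 and 3.04 ± 0.487 at hypomorph day 4, fell in hypomorph cells, a difference of 2.87 ± 0.30. NF-κB genes had a higher step in 12 of 20 and a lower one in 1. Nfkbiz was at 40.7 ± 3.88 scaled CPM at hypomorph day 6 and 57.9 ± 1.69 at hypomorph day 4, so that it fell in hypomorph cells and rose in KO cells, a difference of 1.60 ± 0.12.

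Of 40 cornified envelope genes 19 had a higher step in KO cells and none a lower one. Of 10 suprabasal keratins 4 had a higher step and 1 a lower one, and the 27 differentiation transcription factors were split, with 6 higher, 5 lower and a median difference of 0.00. Krt13 was at 844 ± 76.1 scaled CPM at hypomorph day 6 and 1040.4 ± 119.7 at hypomorph day 4, a difference of 2.16 ± 0.53, and Krt4 differed by 2.84 ± 0.78 and Rptn by 3.59 ± 0.73. The control libraries varied widely in Krt13, at 1288 ± 963 (SD, n = 3). Krt15 was at 564 ± 32.9 scaled CPM at hypomorph day 6 and 838 ± 88.2 at hypomorph day 4, which made a difference of 1.78 ± 0.29. In the other direction stood the ER chaperone genes and the ATF4 and CHOP targets. Of 24 ER chaperone genes 21 had a lower step in KO cells, with medians of -0.42 in KO and 0.42 in hypomorph cells. The ATF4 and CHOP targets had a lower step in 27 of 30. Most of them rose in both states, 20 in KO and 29 in hypomorph cells, with medians of 0.48 and 1.32. Hspa5 was at 1689 ± 183 scaled CPM at hypomorph day 6 and 628 ± 7.88 at hypomorph day 4, a difference of -1.93 ± 0.10. Ddit3 rose in both but less in KO cells (-1.39 ± 0.16), with 138 ± 23.9 scaled CPM at hypomorph day 6 and 12.8 ± 0.887 at hypomorph day 4.

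In the ribosome biogenesis list 29 of 31 genes had a lower step in KO cells and none a higher one, and in hypomorph cells the median step was -0.13. Dkc1 was at 128 ± 7.13 scaled CPM at hypomorph day 6 and 146 ± 8.22 at hypomorph day 4, a difference of -1.55 ± 0.13, and Ncl at 1884 ± 196 scaled CPM at hypomorph day 6 and 1849 ± 115 at hypomorph day 4, a difference of -1.32 ± 0.12. Fst fell in both and further in KO cells (-3.20 ± 0.34), as did Ereg (-2.06 ± 0.17). Hbegf was at 53.8 ± 9.43 scaled CPM at hypomorph day 6 and 51.0 ± 2.87 at hypomorph day 4, a difference of -1.59 ± 0.16. Plaur was at 46.5 ± 3.19 scaled CPM at hypomorph day 6 and 24.7 ± 1.84 at hypomorph day 4, a difference of -3.27 ± 0.20, and Adm at 385 ± 57.9 scaled CPM at hypomorph day 6 and 12.7 ± 1.10 at hypomorph day 4, a difference of -3.43 ± 0.17. Cdkn1a, which passed in KO cells only in 4 of 20 alternatives, was at 686 ± 43.7 scaled CPM at hypomorph day 6 and 349 ± 3.95 at hypomorph day 4, and its steps differed by -0.84 ± 0.11.

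**Figure D4:**
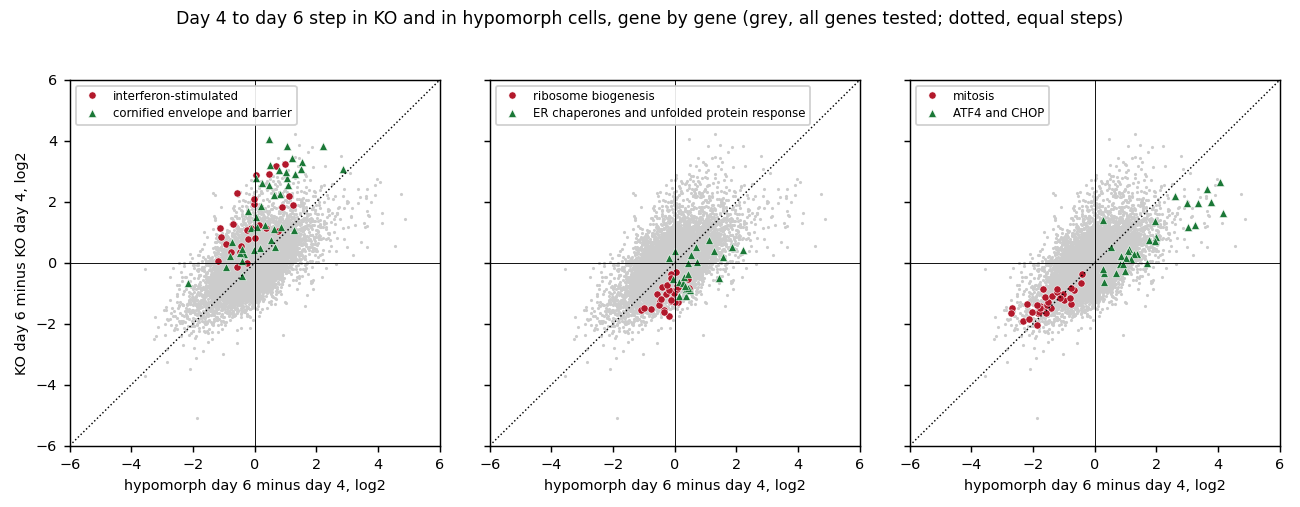
Log2 difference from day 4 to day 6 in KO cells (vertical) against that in hypomorph cells (horizontal) for 12344 genes (grey), with 6 gene lists in colour; the dotted line marks equal steps and the 2 axes share no library. Mitosis genes lie near the line in the lower left, ribosome biogenesis and ER chaperone genes below it, and interferon-stimulated and cornified envelope genes above it.

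The 2 days before had moved fewer genes. From KO day 2 to KO day 4 3916 genes were called, and 369 of them by at least 2-fold, against 1743 from KO day 4 to KO day 6. Both steps share the KO day 4 libraries, and the contrast of the 2 steps takes that into account. The late step was higher than the preceding one in 1452 genes (11.8% of genes tested) and lower in 1946 (15.8%). The late step was lower in all 32 mitosis genes, 17 of 19 licensing genes, 28 of 31 ribosome biogenesis genes, 16 of 24 cholesterol genes (1 higher) and 14 of 23 genes of the EGF receptor and ERK list (2 higher). Mcm7 averaged 175 ± 11.9 at day 0, 166 ± 8.82 at day 2, 126 ± 1.10 at day 4 and 29.7 ± 2.27 at day 6 (SD, n = 3 each). Fst stood at 85.7 ± 10.5 at day 0, 209 ± 19.4 at day 2, 184 ± 16.0 at day 4 and 5.25 ± 2.22 at day 6, above control until day 4 and below it at day 6. Ncl, at 2275 ± 96.8 at day 0, 2683 ± 199 at day 2, 2004 ± 220.2 at day 4 and 816 ± 65.7 at day 6, had its highest mean at day 2. Interferon-stimulated genes were higher in the late step in 10 of 27 cases and lower in 2. The median of that list had already been 0.63 from KO day 2 to KO day 4, and Gbp2 differed by 1.27 in that step. Irf9 stood at 6.32 ± 0.122 at day 0, 5.13 ± 0.340 at day 2, 5.88 ± 0.358 at day 4 and 23.9 ± 0.711 at day 6. ATF4 and CHOP targets were higher in 17 of 30, with Ddit3 at 11.9 ± 0.773 at day 0, 10.8 ± 0.678 at day 2, 17.8 ± 0.740 at day 4 and 71.1 ± 6.28 at day 6. For the cornified envelope list 10 of 40 genes were higher and 4 lower in the late step, and its median difference was 0.72 from KO day 2 to KO day 4.

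**Figure D5:**
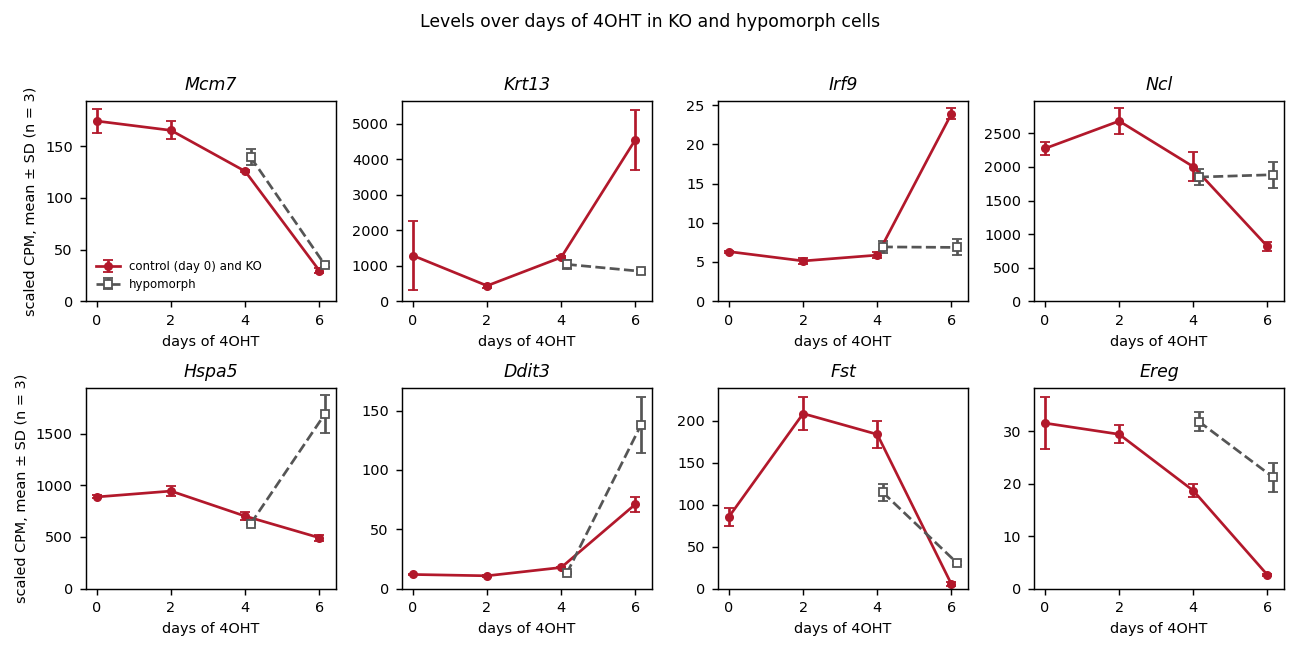
Mean scaled CPM ± SD (n = 3 libraries) of 8 genes over days of 4OHT, in control (ethanol, drawn at day 0) and KO cells (filled circles) and in hypomorph cells at days 4 and 6 (open squares, drawn slightly to the right); axes start at 0. Mcm7, Fst and Ereg drop between day 4 and day 6 in both, whereas Irf9 and Krt13 rise in KO cells and Ncl falls in KO cells.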

How the data were processed

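Poly(A)-selected RNA of the 18 messenger RNA samples was made into directional libraries with 14 PCR cycles, and per the submitters' processing notes reads were aligned with STAR to mm10 and counted with featureCounts. Tool versions are not given in the sources used here. Levels were deposited as a signal that the authors had normalized; the design assumed CPM, but column totals differ, so values are called scaled CPM. For poly(A) sites the authors deposited, gene by gene, the ratio of proximal to distal reads, pooled by the authors over the samples of a group, from reads on mm9, turned here into a proximal share. Beside the levels the authors deposited log2 changes and a p-value against day 0; in all 7366 genes called here the 2 log2 changes from day 0 differ in the same direction as the test here.

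Each value was a whole number of reads within 0.1 of a read, which gave 16.3 to 91.4 M reads a library. The 6 columns of per-sample microRNA values were not used. Genes with 1 or more scaled CPM in at least 3 libraries (12344 of 12348 listed) were fitted with limma 3.58.1 in R 4.3.3 (trend, robust) on log2(scaled CPM + 0.5) with 1 term per group, two-sided, with Benjamini-Hochberg adjusted p under 0.05. The procedure was tested on simulated data. Alternatives were other pseudocounts, filters and scalings, depth and Alb terms, the replicate block, each replicate left out, and edgeR 4.0.16 and DESeq2 1.42.0 on recovered reads, which are counts without molecular identifiers.

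The comparison and its 41 gene lists were chosen with earlier results of these data known. Named were Nudt21, the 15 called genes that rose most and the 15 that fell most, if the higher mean reached 10 scaled CPM and the libraries of the days did not overlap, the up to 5 called members of each list with the smallest p and called members against their list's majority; other names, those of members that did not pass included, were chosen after their values were seen. Promoters are RefSeq windows of GRCm38.p6; for a gene with several windows, that with most matches was taken. Antisense and paralogous genes may share reads. Replicate libraries differed beyond counting noise (chi-square per degree of freedom 12.9 to 59.9). Some genes that the rule names are not reported here.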

Additional observations from a re-analysis of the deposited data

Results flagged for a closer look

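The step from day 4 to day 6 differed between KO and hypomorph cells, by the limma test of that difference, in 5636 of 12344 genes. The genes described in the report that meet it are given here as KO step minus hypomorph step on the log2 scale, each from 3 libraries a group. Interferon and NF-κB genes had the higher step in KO cells, with Irf9 at 1.95, Parp14 at 2.87 and Nfkbiz at 1.60. So did the epithelial genes Krt13 (2.16), Krt4 (2.84), Rptn (3.59) and Krt15 (1.78). The lower step in KO cells was found for the stress genes Hspa5 (-1.93) and Ddit3 (-1.39) and for Cdkn1a (-0.84) and Adm (-3.43). It was also found for the nucleolar genes Dkc1 (-1.55) and Ncl (-1.32) and for the secreted or surface proteins of Fst (-3.20), Plaur (-3.27), Ereg (-2.06) and Hbegf (-1.59). Krt15, Nfkbiz, Parp14, Hspa5 and Plaur were called in opposite directions in the 2 states, as shown by their values in the report.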

How the results depend on the processing

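The number of genes called between KO day 6 and KO day 4 lay between 6815 and 7629 in all alternatives but the removal of libraries with Alb over 100 scaled CPM, which leaves 1 library in each of these groups, assumed to vary like the other groups. That left 4492 genes (1965 higher, 2527 lower), 3503 for the difference from the hypomorph step (1440 higher, 2063 lower) and 737 for the difference from the preceding step (273 higher, 464 lower). With every library scaled to the same total, the difference from the hypomorph step was higher in 3636 and lower in 2138 genes. Leaving out each replicate gave 6815 to 6993 genes for the step (2907 to 3204 higher, 3679 to 4086 lower), 5105 to 5649 for the difference from the hypomorph step (1973 to 2292 higher, 2892 to 3524 lower) and 2526 to 3356 for that from the preceding step (973 to 1443 higher, 1399 to 2075 lower). The replicate block gave 7419, 5727 and 3533 genes; the same replicate numbers did not deviate together (correlations of 0.05, -0.71 and -0.65), so the numbers were not taken as pairs. Without the libraries with Alb over 100, the named calls of Atg5, Dusp6, Edem1, Egfr, Epcam, Ern1, Grhl2, Hlf, Krt14, Krt19, Ppard, Psat1, Rbl2, Shmt2, Slc7a5, Tfap2a and Wipi2 were lost. The fall of Nudt21 did not pass with every library scaled to the same total (-0.63), with TMM factors (-0.62), with depth as a term (-0.61) or without the libraries with Alb over 100 (-0.37), and leaving out single libraries gave -0.78 to -0.48. Signs turned in genes that were not called in either setting: Krt5 (0.0037 with DESeq2), Rrm1 (0.0085) without the libraries with Alb over 100, and Trp63 and Srebf2 with single libraries left out (-0.027 to 0.081 and -0.072 to 0.075). The cause of these changes was not tested. No gene named in the report that was called was called in the opposite direction in any alternative. Genes of a few scaled CPM rest on few reads in the shallowest library, and intervals were not given for them.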

Other observations

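The 6 families given here were picked out after their values had been seen, so their counts are a description. All 8 kallikrein genes tested rose from KO day 4 to KO day 6, with a median of 2.05, and 7 had a higher step than in hypomorph cells. They encode secreted serine proteases, several of which act in shedding of surface squames. Klk12 stood at 22.2, 8.90 and 9.57 scaled CPM in KO day 6 libraries, against 1.93, 1.32 and 0.915 in KO day 4 libraries, the first KO day 6 library being the highest, and Klk7 rose by 2.61 ± 0.39.

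Of 16 genes of the circadian clock and its output 10 rose and 2 fell. Dbp, a PAR-domain factor driven by the clock, stood at 28.4, 31.6 and 27.0 at KO day 6 and 3.07, 3.44 and 3.37 at KO day 4, with no overlap between days, and Tef, Per3 and Nr1d1 rose by 1.03 ± 0.09, 1.22 ± 0.15 and 1.53 ± 0.11. Cry1 fell by 0.77 ± 0.15 and Hlf by 0.29 ± 0.09. The step was higher in KO than in hypomorph cells in 5 of the 16 and lower in 8.

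Poly(A)-selected libraries showed 3 of 11 histone genes higher and none lower at KO day 6, a share near the 26.6% of all genes called higher. Hist1h2bc stood at 61.0, 54.7 and 51.7 at KO day 6 and 9.47, 9.23 and 8.87 at KO day 4 and Hist1h1c rose by 2.20 ± 0.20. The third, Hist1h4i, lost its call in 8 of 20 alternatives. Of 77 mitochondrial ribosomal protein genes 51 fell and 1 rose, with a median of -0.42 in KO cells and 0.11 in hypomorph cells, and of 82 cytosolic ribosomal protein genes 3 fell and 6 rose, with medians of 0.00 and 0.59. The step was lower in KO than in hypomorph cells in 51 and 54 of them. Of 312 Zfp zinc finger genes 52 rose and 70 fell, smaller shares than the 26.6% and 33.1% of all genes. Their median was -0.04 in KO cells and -0.27 in hypomorph cells.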
